A study of Mus musculus with 2 samples.

Results

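The genes described here encode the machinery that moves calcium into and out of the sarcoplasmic reticulum (SR) of the heart muscle cell with each beat. They are 10 genes, *Atp2a2*, *Pln*, *Sln*, *Ryr2*, *Casq2*, *Slc8a1*, *Cacna1c*, *Trdn*, *Jph2* and *Hrc*, and they were taken as every noncontrol probe whose accession maps to one of these symbols, 13 probes of the 55676 on the array. All 10 were measured, among 13846 named genes that passed background on one array or both. The data are 1 array per genotype, each hybridized with left ventricular RNA pooled from 6 male mice aged 12 weeks and collected at ZT 2 (ZT 0 is lights on). The *H-Bmal1*-/- animals carried a floxed *Bmal1* gene (*Arntl* tm1Weit) and a *Cre* transgene under the αMHC (*Myh6*) promoter, which is active in cardiomyocytes, so that the other cells of the ventricle were not targeted. The control animals were littermates that also carried the floxed gene but no *Cre*, although the sample labels call them wild type. Both groups therefore share the floxed allele, and no array holds *Cre* alone.

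In a ventricular cardiomyocyte, calcium that enters through the L-type channel during the action potential opens the ryanodine receptor, which releases far more calcium from the SR and starts contraction. Relaxation follows when the SR calcium pump SERCA2a takes the calcium back, under the restraint of the small membrane proteins phospholamban and sarcolipin, and when the sodium-calcium exchanger moves the rest out of the cell. Loss of SERCA2a relative to phospholamban is a well known feature of failing hearts.

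*Bmal1*, listed under its official symbol *Arntl*, had a processed signal of 513 in control and 328 in knockout ventricles, a log2 ratio of -0.80, and whether its probe lies in the deleted part was not determined. *Nr1d1*, a direct target of BMAL1, was at 385 and 101. Of 59305 noncontrol spots, 29288 of the control array and 29672 of the other were well above background, and 0 were saturated. Of 10 markers of ventricular cardiomyocytes, all were well above background on both arrays. Of 10 markers of atrial cardiomyocytes, 9 passed background on at least 1 array, and *Bmp10* did not on either.

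Levels are given as log2 of the processed signal, the background-subtracted brightness of a spot, minus the 75th percentile of the same array, and a ratio is the difference on that scale, knockout minus control. Processed signals are printed before this scaling, and the 75th percentile was 171 (control) and 190 (knockout), so that equal scaled levels go with a somewhat higher processed signal in the knockout pool. Well above background is the scanning software's own call for a spot. A gene takes the mean of those of its probes that passed background on either array. Each genotype is 1 pool, which leaves the spread between animals unmeasured and allows no test, so that every difference describes these 2 pools and not the genotypes. 2 yardsticks of technical error are available, 1 modeled and 1 measured. The scanning software's own error of the log2 ratio was between 0.20 and 0.29 for the 12 member probes well above background on both arrays. It comes from the software's error model and was nearly the same, 0.20, for all the brighter probes. For these, 2 software errors thus act as an almost fixed fold. Between repeated spots of 1 probe, the SD of the log2 ratio had a median of 0.07 over 247 probes printed at least 8 times. Its 95th percentile was 0.26. The repeated spots lie on the same 2 arrays, so that this SD holds no difference between labelings or hybridizations. Neither yardstick holds any difference between animals, and each member probe is printed once.

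Of the 10 genes, 8 lay below 0 and 2 above it, against 51.6% of all measured genes below 0. Their median log2 ratio was -0.39, a 1.31-fold difference, whereas the median over all genes was -0.01. By a rule of at least 1.5-fold, *Atp2a2* and *Cacna1c* were lower and *Sln* was higher, where 5.85% of all genes were lower and 6.15% higher. *Pln*, *Ryr2*, *Jph2* and *Hrc*, each from 1 probe, lay within a range of -0.41 to -0.39. *Casq2* went the other way at 0.53, and *Slc8a1* and *Trdn* lay nearer to 0. Over the 13 probes, 9 were below 0, and of the 12 well above background on both arrays the ratio exceeded 2 software errors for 5 and stayed under 1 software error for 3, which were both probes of *Slc8a1* and the brighter probe of *Trdn*.

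**Figure D1:**
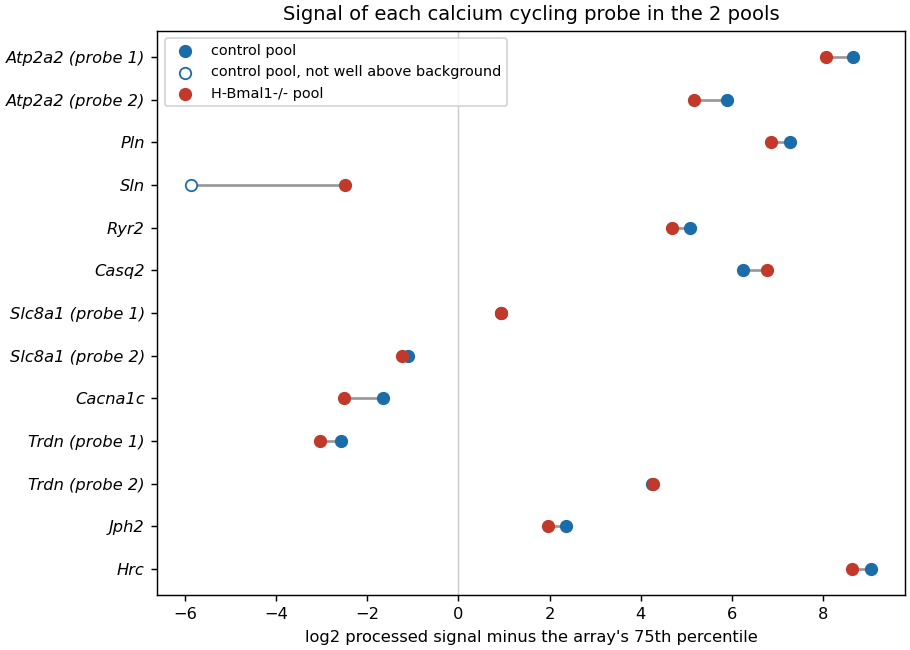
Log2 processed signal relative to the 75th percentile of the array (horizontal axis) of each of the 13 probes (rows) in the control pool (blue) and the *H-Bmal1*-/- pool (red). The gray line joins the pools, and the open circle marks the *Sln* probe in the control pool, which was not well above background. For *Atp2a2*, *Pln*, *Ryr2*, *Cacna1c*, *Jph2* and *Hrc* the red point lies to the left of the blue one, and for *Sln* and *Casq2* to the right.

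*Atp2a2* encodes SERCA2, the pump that returns calcium to the SR. Its brighter probe had a processed signal of 68839 in control and 50763 in knockout ventricles, and its dimmer probe 10215 and 6790. Both probes were lower in the knockout pool, at log2 ratios of -0.59 and -0.74, and the gene was 1.59-fold lower (log2 ratio -0.67). The gap of 0.15 between its probes was close to the median gap of 0.13 over 2767 genes with 2 such probes. Only 5.28% of all genes had a lower ratio. Without scaling between the arrays, which raises every ratio by 0.15 and puts the median of all genes at 0.14, *Atp2a2* was at -0.51 and no longer 1.5-fold lower.

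*Pln*, which encodes phospholamban, the inhibitor of SERCA2a, had a processed signal of 26496 in control and 22139 in knockout ventricles, a log2 ratio of -0.41 or 1.33-fold lower. Both the pump and its inhibitor were thus lower, the pump by more. The log2 ratio of *Atp2a2* minus that of *Pln* was -0.26, a quantity that a common scale factor cannot move, and it ranged from -0.28 to -0.18 over the processing alternatives. It is of the size of the software error of 1 probe's ratio.

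*Sln* encodes sarcolipin, another inhibitor of the SR calcium pump, which in the mouse heart is found mainly in the atria. Its probe had a processed signal of 2.94 in the control pool, not well above background, and of 33.7 in the knockout pool, well above it. Against 11.1, the dimmest signal that still passed background on the control array, *Sln* was 2.75-fold higher in the knockout pool, which is called its bound. This bound is no strict minimum, since *Stim2*, at a brighter 14.9 in the control pool, did not pass background there. The level in the knockout pool was still low, at a log2 signal of -2.49 relative to the 75th percentile of the array. After a normexp background correction with an offset of 50, which draws the ratios of dim probes toward 0, the log2 ratio was 0.54, or 1.46-fold, and the bound was 0.43, so that *Sln* no longer reached 1.5-fold.

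Atrial markers were set beside *Sln*. Of 10 listed, 9 were measured, of which 4 were above 0 and 5 below, with a median log2 ratio of -0.06. *Nppa*, which encodes ANP and also marks the stressed ventricle, was at 2.87. *Dkk3*, named after its values were seen, was at 1.30 (0.80 after normexp). *Myl7*, the atrial regulatory light chain, was at 0.63 (0.33 after normexp) and *Myl4*, the atrial essential light chain, at 0.15. Below 0 lay *Stard10* at -0.53, *Nr2f2* at -0.12, *Kcna5* at -0.09 and *Adm* at -0.06, also named after their values were seen. *Sbk2*, well above background in the control pool only, was lower in knockout ventricles, with a bound of 2.02-fold (log2 ratio -0.42 after normexp). The processed signals of the list summed to 20273 in control and 153526 in knockout ventricles, of which *Nppa* gave 18682 and 151739. *Myl7* was dim in both pools, reaching 86.1 in the knockout pool, and *Bmp10* was not well above background in either.

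The ryanodine receptor gene *Ryr2*, which encodes the calcium release channel of the SR, had a processed signal of 5789 in control and 4902 in knockout ventricles, a log2 ratio of -0.39. *Jph2*, which encodes junctophilin 2, the protein that holds the SR against the T-tubule, was at 875 and 743, also a log2 ratio of -0.39. *Hrc*, which encodes the histidine-rich calcium binding protein of the SR lumen, was at 90461 and 76082, a log2 ratio of -0.40. These genes were lower in the knockout pool by 1.31-fold, 1.31-fold and 1.32-fold, and each ratio was close to 2 software errors in size. The ratio of *Ryr2* minus that of *Jph2* was -0.005, and between -0.03 and 0.02 over the alternatives.

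*Casq2* encodes cardiac calsequestrin, the main calcium buffer of the SR lumen. Its signal was 13016 in control and 20833 in knockout ventricles, a log2 ratio of 0.53 or 1.44-fold higher, which put it above 91.6% of all genes. It was the only one of the 9 members well above background on both arrays that was higher in the knockout pool under each of the 13 alternatives of scaling, background, filter, probe summary and source. Without scaling (0.68) and after normexp (0.59) it passed 1.5-fold. Relative to *Ryr2* it was higher by 0.92 on the log2 scale, or 1.89-fold, with a range of 0.91 to 0.94 over the alternatives.

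*Trdn* encodes triadin, which anchors calsequestrin to the ryanodine receptor. Its probes, both assigned to the accession NM_029726, disagreed. The bright probe was at 3244 in control and 3678 in knockout ventricles, a log2 ratio of 0.03, and the dim probe at 28.7 and 23.1, a log2 ratio of -0.47. The gap of 0.50 was wider than the 90th percentile of such gaps over genes with 2 probes, 0.45. The gene value of -0.22 is therefore a mean of unlike probes, and it was 0.03 with the brightest probe alone.

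**Figure D2:**
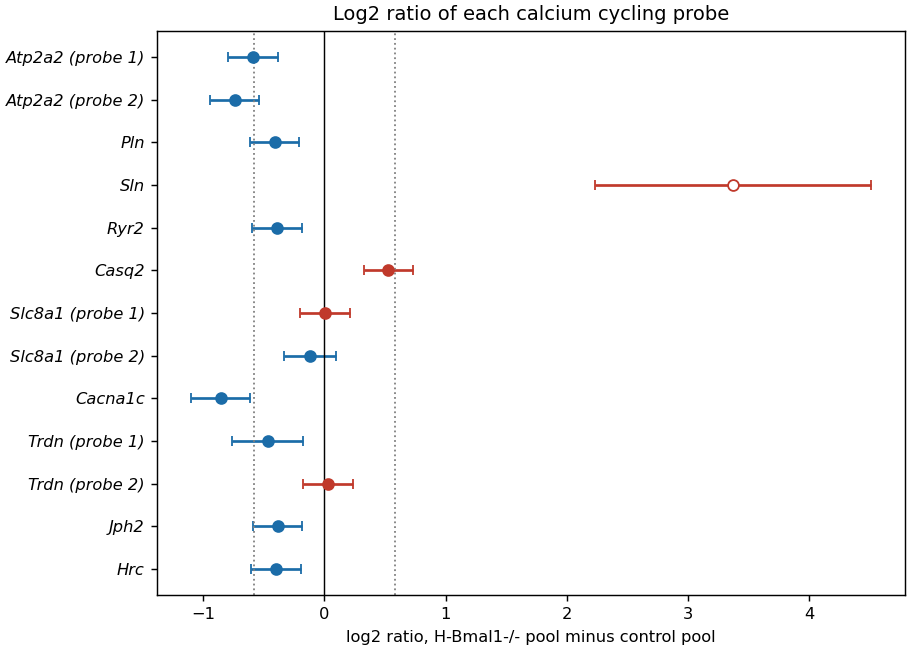
Log2 ratio, *H-Bmal1*-/- pool minus control pool (horizontal axis), of each of the 13 probes (rows), blue below 0 and red above. Bars are ± 1 error of the ratio from the scanning software's error model, which is no measured spread and covers no difference between animals. Dotted lines mark 1.5-fold, and the open circle is *Sln*, not well above background in the control pool. The probes of *Pln*, *Ryr2*, *Jph2* and *Hrc* lie between -0.41 and -0.39.

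The promoters of *Pln*, *Ryr2*, *Jph2* and *Hrc*, whose ratios lay close together, are shown, with that of *Casq2*, which went the other way. Those ratios lay closer together than the software error of 1 probe's ratio, at least 0.20, so that their closeness does not make these genes a group. Between 10.6% and 11.6% of all genes had a lower ratio than each of them. Shared control was not tested. The sequences are those of RefSeq on GRCm38.p6, each the 150 bases before the transcription start, 5′ to 3′ on the strand of the gene. Capitals mark AGGTCA on either strand, the hexamer bound by many nuclear receptors, REV-ERBα among them.
Pln, chr10:53337536-53337685, plus strand: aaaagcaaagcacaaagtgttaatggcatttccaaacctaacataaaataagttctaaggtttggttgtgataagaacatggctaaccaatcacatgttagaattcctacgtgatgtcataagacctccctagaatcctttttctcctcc
Ryr2, chr13:12106946-12107095, minus strand: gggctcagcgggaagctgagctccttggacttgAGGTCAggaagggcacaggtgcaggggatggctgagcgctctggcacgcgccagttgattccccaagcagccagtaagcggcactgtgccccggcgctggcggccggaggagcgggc
Jph2, chr2:163397974-163398123, minus strand: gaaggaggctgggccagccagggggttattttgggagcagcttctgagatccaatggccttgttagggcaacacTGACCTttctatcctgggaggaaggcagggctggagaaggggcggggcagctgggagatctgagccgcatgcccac
Hrc, chr7:45335119-45335268, plus strand: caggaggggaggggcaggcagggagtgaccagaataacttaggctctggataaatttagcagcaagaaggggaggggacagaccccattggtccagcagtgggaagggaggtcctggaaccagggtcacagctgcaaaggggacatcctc
Casq2, chr3:102086265-102086414, plus strand: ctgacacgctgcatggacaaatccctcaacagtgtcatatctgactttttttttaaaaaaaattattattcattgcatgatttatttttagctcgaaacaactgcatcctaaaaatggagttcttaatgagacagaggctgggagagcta
The letters AGGTCA occur in the promoters of *Ryr2*, 117 bases before the start (position -117), and of *Jph2*, where they lie on the other strand from position -76. They do not occur in the windows of *Pln*, *Hrc* or *Casq2*. Promoter windows were at hand for 7 of the 10 genes (not *Atp2a2*, *Sln* or *Trdn*), 10 windows in all, each with 250 bases before and 50 after the start. AGGTCA was in 3 of the 10, of which a pair are overlapping windows of *Jph2* that share 1 site, and in 16.3% of all 32851 windows. The E-box CACGTG, which CLOCK and BMAL1 bind, its variant CACGTT and a MEF2-type motif, CTA and TAG with any 4 bases between them, were in 0 of the 10 on either strand, against 7.15%, 4.68% and 3.69% of all windows.

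At the cell surface, *Cacna1c* encodes the pore of the L-type calcium channel. Its probe, for the accession NM_001159533, had a processed signal of 54.0 in control and 33.1 in knockout ventricles, a log2 ratio of -0.86 or 1.81-fold lower. This was the lowest ratio among the 10 genes, from a dim probe, and 3.62% of all genes were lower. After normexp it was -0.38, under 1.5-fold, and in the other alternatives it lay between -0.87 and -0.71.

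*Slc8a1* encodes NCX1, the sodium-calcium exchanger that moves calcium out of the cell. The probe for NM_001112798 had a processed signal of 325 in control and 361 in knockout ventricles, a log2 ratio of 0.003, and the probe for NM_011406 was at 79.1 and 80.9, a log2 ratio of -0.12. Neither differed by as much as 1 software error. The gene value of -0.06 turned to 0.09 without scaling and to 0.003 with the brightest probe. Relative to *Slc8a1*, *Atp2a2* was 1.52-fold lower, with the difference of their log2 ratios at -0.61 and between -0.63 and -0.59 over the alternatives.

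**Figure D3:**
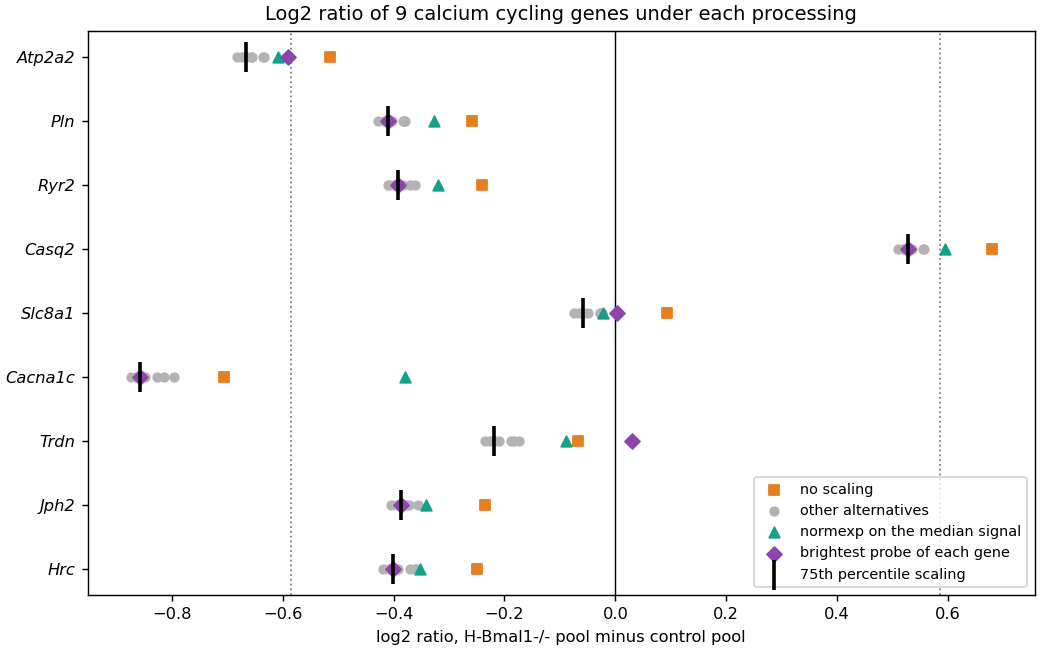
Log2 ratio of 9 of the genes (rows; *Sln*, which lies off the scale, is left out) under each way of processing. Black bars are the 75th percentile scaling, orange squares no scaling, green triangles the normexp correction, purple diamonds the brightest probe and gray points the other alternatives, and dotted lines mark 1.5-fold. *Cacna1c* moves from -0.86 to -0.38 with normexp, *Slc8a1* and *Trdn* cross 0, and the other genes keep to one side of it.

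Read against the background of each setting, the counts of the 10 genes moved as follows. Without scaling, 7 were below 0, where 30.2% of all genes were, 1 was 1.5-fold lower (3.83% of all genes) and 2 were higher (9.66%). After normexp, 8 were below 0 (51.5%), 1 was 1.5-fold lower (1.79%) and 1 higher (2.67%), the latter being *Casq2* in place of *Sln*. With genes dim on either array left out, 8 of 9 were below 0 (52.5%), 2 were 1.5-fold lower (4.27%) and 0 higher (4.74%). With the brightest probe of each gene, 6 were below 0 (51.9%). At 2-fold in place of 1.5-fold, 0 were lower (2.06%) and *Sln* was higher (2.41%), and at a log2 ratio of 0.32, 6 were lower (15.0%) and 2 higher (14.2%).

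The RNA of a whole ventricle mixes cell types, and fewer cardiomyocytes and less RNA per cardiomyocyte cannot be told apart here. Of the 10 ventricular cardiomyocyte markers, 8 were below 0, against 51.6% of all genes. Without scaling 5 were (30.2% of all genes), and under quantile normalization 5 (49.3%). Their median log2 ratio was -0.17, from *Tnni3* at -0.42 to *Mybpc3* at 0.34, and none was 1.5-fold lower or higher. Their processed signals, before scaling, summed to 1559510 in control and 1580480 in knockout ventricles, and after scaling the log2 ratio of the sums was -0.13. The median of the calcium cycling genes lay 0.22 below that of these markers (difference -0.22), and between -0.33 and -0.19 over the alternatives. Of 10 fibroblast markers, 9 were above 0, with a median of 0.57, from *Fbln1* at -0.24 to *Postn* at 1.87. Their summed signal was 52011 in control and 85779 in knockout ventricles, a log2 ratio of 0.57 after scaling. Endothelial markers had a median of -0.07 (*Cdh5* at -0.22 to *Emcn* at 0.10), smooth muscle and pericyte markers -0.16 (*Kcnj8* at -0.43 to *Cnn1* at 0.32) and leukocyte markers 0.05 (*Itgam* at -0.24 to *Mrc1* at 0.18). Without scaling, which adds 0.15 to each of these medians, that of the ventricular markers was -0.02, where the median of all genes was 0.14. Those of the endothelial and atrial markers then lay above 0. Under quantile normalization the median of the ventricular markers was -0.04, where that of all genes was 0.01. The part of these shifts in the ratios of the calcium cycling genes was not tested.

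Other calcium handling genes were listed from textbook knowledge, but with earlier results of these data already known. The comparison with them is therefore a description only. Of 69 such genes in 8 lists, 59 were measured, and 25 of them (42.4%) were below 0, with a median log2 ratio of 0.04, where 51.6% of all genes were below 0. Without scaling these were 16 (27.1%), against 30.2% of all genes. By the 1.5-fold rule, 5 (8.47%) were lower and 4 (6.78%) higher, beside 5.85% and 6.15% of all genes. The median of the 10 cycling genes, -0.39, thus lay below that of the wider pathway, as it did under each of the alternatives that were run. There the medians of the 10 genes lay between -0.41 and -0.24 and those of the wider pathway between 0.02 and 0.19. The value of 0.19 was reached without scaling, where the median of all genes was 0.14.

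Among SR uptake genes, *Atp2a1*, the pump of fast skeletal muscle, was 1.59-fold lower (log2 ratio -0.67, from 4086 to 2856), and whether its probe also takes up RNA of its paralog *Atp2a2* was not tested. *Atp2a3*, a SERCA of nonmuscle cells, was at -0.04. *Hspb6*, a small heat shock protein that acts on the control of phospholamban, was at 0.28 and *Hax1*, a binding partner of phospholamban, at 0.25. Of 8 listed, 5 were measured and 2 were below 0.

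Among genes of the release complex and of calcium storage, 10 of 13 measured were above 0. *Casq1*, the skeletal muscle calsequestrin, was 5.54-fold higher, from a processed signal of 34.5 in the control pool to 212 in the knockout pool (log2 ratio 2.47, and 1.34 after normexp). *Fkbp1b*, the FKBP12.6 subunit of the ryanodine receptor, was at 0.32, while *Calr*, the calcium buffer of the endoplasmic reticulum, was at -0.24 and *Itpr2*, an inositol trisphosphate receptor, at -0.07. *Ryr1*, the skeletal muscle ryanodine receptor, was not well above background on either array. Both calsequestrin genes were therefore higher in the knockout pool, while the ratio of *Ryr2* was below 0.

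Of 8 genes of the T-tubule and its junction with the SR, 4 were below 0. *Jsrp1*, which encodes JP45, a junctional SR protein that binds calsequestrin, was 2.79-fold higher, from 176 to 545. *Bin1*, which shapes T-tubules, was at 0.35. *Cmya5*, myospryn, was 1.66-fold lower, with both probes below 0 (-0.86 and -0.61). *Jph1*, the other muscle junctophilin, was at -0.66 from a dim probe well above background in the control pool only, so that this is a measured ratio and sets no minimum, and it was -0.16 after normexp. Without scaling, *Atp2a1* at -0.52 and *Cmya5* at -0.58 were under 1.5-fold. Of 10 skeletal muscle markers, set beside *Casq1*, *Jsrp1* and *Atp2a1*, 5 were measured and 3 were below 0. The lowest was *Tnnc2* at -1.69 (-0.67 after normexp). *Tnnt3* was not well above background in the control pool and was higher in the knockout pool, with a bound of 3.19-fold. After normexp its log2 ratio was 0.44. The signals of the 5 summed to 963 in control and 1572 in knockout ventricles, and without *Mybpc2*, named after its values were seen, to 545 and 472. *Myh1*, *Myh2*, *Myh4*, *Mylpf* and *Actn3* were not well above background on either array.

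Of 12 measured genes of calcium entry through the sarcolemma, 7 were below 0. *Cacna1s*, the pore of the skeletal muscle L-type channel, was 1.76-fold lower with its probes at -0.82 and -0.81, and *Cacnb4*, a channel β subunit, was at -0.74 (-0.18 after normexp), dim and well above background in the control pool only. At the other end, *Gem*, a small GTPase that restrains L-type channels, was 1.64-fold higher (log2 ratio 0.71, and 0.31 after normexp). Its signal was low, 39.9 in control and 72.7 in knockout ventricles, and its probes disagreed, at 0.43 and 1.00. *Cacnb1* was at 0.56. For extrusion, 3 of 5 measured genes were below 0. *Slc8a2*, the NCX2 exchanger, was 2.30-fold higher from a low signal, 43.5 to 111 (log2 ratio 1.20, and 0.61 after normexp), and *Slc8a3*, NCX3, was at 0.31, while the plasma membrane calcium pumps *Atp2b1* and *Atp2b2* were at -0.16 and -0.26.

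**Figure D4:**
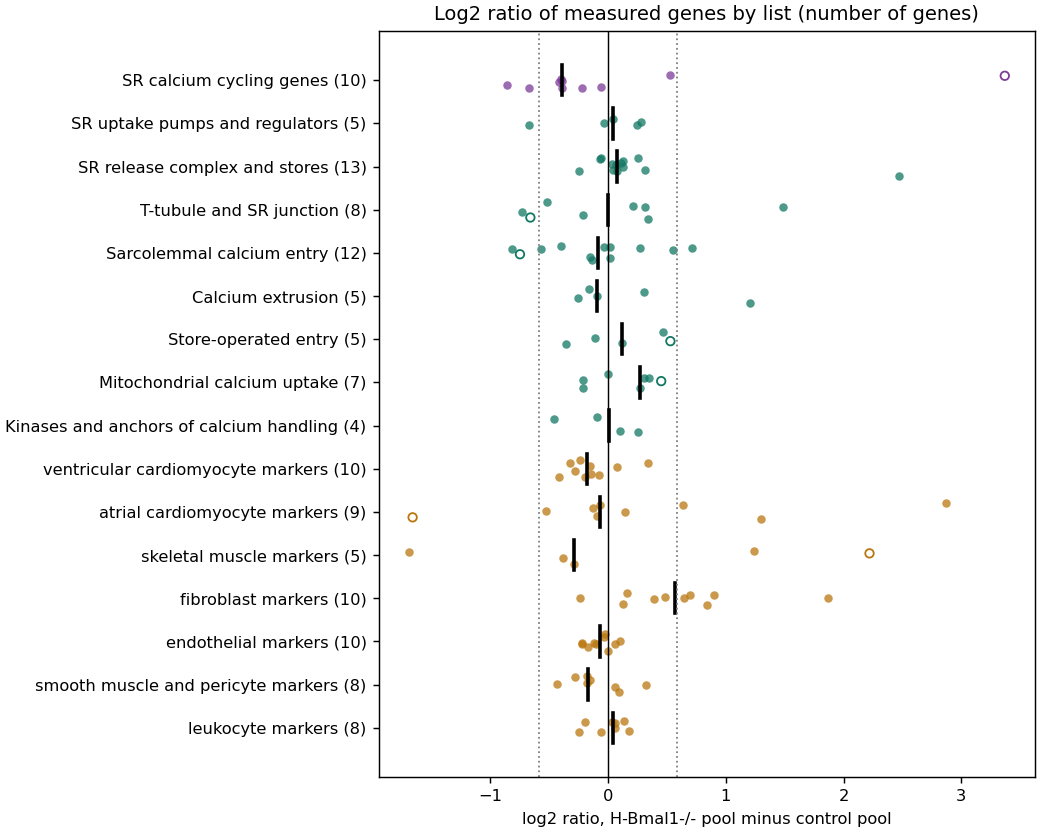
Log2 ratio, *H-Bmal1*-/- pool minus control pool (horizontal axis), of the measured genes of each list (rows, number of genes in parentheses), with the SR calcium cycling genes in purple, the 8 other calcium handling lists in green and cell type markers in orange. Each point is 1 gene, open where just 1 of the arrays had it well above background, black bars give medians, and the dotted lines stand at 1.5-fold. The median of the SR calcium cycling genes lies at -0.39 and those of the other calcium handling lists between -0.09 and 0.28.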

How the data were processed

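Total RNA of the left ventricles was pooled by genotype, labeled with Cy3 and hybridized to Agilent SurePrint G3 Mouse arrays (8x60K), 1 array per pool. The deposited intensities are the processed signals, and their errors, that Agilent Feature Extraction made by subtracting background and correcting spatial trends (10.5.1.1 per the study's methods and the submitters' processing notes, 10.10.1.1 per the file headers). The authors' value table held the same signal multiplied by an array-wide constant, of log2 2.45 (control) and 2.31 (knockout), with medians of 67.2 and 64, linear, uncentered and in the same direction. How the factor was set is not stated in those sources.

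Control spots and 269 spots with an outlier flag were left out, log2 was taken, the 75th percentile over noncontrol spots (171 and 190) was subtracted, and spots of a probe were averaged. Symbols came from accessions in a RefSeq table of GRCm38.p6, used for names and promoters only, which matched 26759 of 55676 probes. Among the 28411 probes that passed background on either array, 10357 had no symbol. A gene well above background on 1 array only was counted at its bound, with the dim side set to the higher of its own value and the lowest signal well above background. Sums over a marker list were compared between arrays only. The number of arrays limits the precision.

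The genes and lists were chosen with earlier results of these data known. Named were all 10 genes, up to the 2 lowest and 2 highest genes of each calcium list, any other gene of those lists at least 1.5-fold from 1, the lowest and highest marker of each cell type, chamber markers, and *Arntl* and *Nr1d1*. 1 gene picked by this rule is left out. No test was made. Steps were tested on simulated data. The calculations used Python 3.11.15, numpy 2.4.6, pandas 2.3.3, matplotlib 3.10.9, R 4.3.3 and limma 3.58.1.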

Additional observations from a re-analysis of the deposited data

How the results depend on the processing

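The values were recomputed under 13 alternatives of scaling, background correction, filter, probe summary and source, and with 2 other thresholds of size. Without scaling between the arrays, the median of the 10 genes was -0.24 against 0.14 for all genes, 7 were below 0, 1 (*Cacna1c*) was at least 1.5-fold lower and 2 (*Casq2* and *Sln*) higher, and 16 genes of the 8 other calcium lists were below 0. After normexp, 1 of the 10 genes (*Atp2a2*) was at least 1.5-fold lower and 1 higher, which was *Casq2* in place of *Sln*, and the widest gap between the probes of a gene, that of *Trdn*, was 0.29 in place of 0.50. With genes well above background on both arrays only, *Sln* drops out and 0 were 1.5-fold higher. At 2-fold, 0 were lower and 1 higher, and at a log2 ratio of 0.32, 6 were lower and 2 higher. With the brightest probe of each gene, 6 were below 0, since *Slc8a1* and *Trdn* crossed it. In the other alternatives, 8 of the measured genes were below 0 and the median lay between -0.41 and -0.36. The effect of the alternatives on the probe gap was computed after the data had been seen. The mean signal, planned for normexp, is not in the scanner output used here, and the median signal took its place. No saturated spot was present to leave out.

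No paired analysis was possible because each genotype is 1 array. Dim signal limits what can be said of *Sln*, *Cacna1c* and the dim probe of *Trdn*, and pooling leaves no measure of the spread between animals.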

Other observations

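Mitochondria take up calcium through the uniporter, whose pore *Mcu* was at a log2 ratio of -0.21 and whose scaffold *Mcur1* was at -0.21. The regulator *Micu3*, from a dim probe that passed background only in knockout ventricles, had a bound of 0.37 on the log2 ratio. Of 7 measured genes of this list, 2 were below 0, and the median was 0.28, or 0.04 after normexp. None was 1.5-fold lower or higher.

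Of 5 genes of store-operated calcium entry, 2 were below 0. The SR calcium sensor *Stim2* was at 0.53, from a probe that passed background only in knockout ventricles, and *Stim1* at -0.11, while the channel subunits *Orai2* and *Orai3* were at 0.47 and -0.36. Among kinases and anchoring proteins, *Camk2d*, which encodes CaMKIIδ, was at 0.26, with its 3 probes between 0.01 and 0.40. *Akap6* was at 0.10, and *Prkaca*, a catalytic subunit of protein kinase A, was at -0.09. *Akap7*, which anchors protein kinase A near phospholamban, was at -0.46, with its 3 probes between -0.91 and -0.08.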
